A study of Mus musculus with 6 samples.

Results

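The 22 circRNAs described here were those whose array signal was at least 2-fold lower in every Nrf2 knockout hippocampus than in every wild-type hippocampus. Circular RNAs (circRNAs) are transcripts closed end to end by back-splicing. The 6 arrays, 1 per mouse, held 14236 circRNA probes with 1 spot each. Of these, 14161 had no spot marked as a non-uniform outlier on any array, and 12517 of those were well above background on all 6 arrays. The 300 probes with the highest wild-type mean were set aside, which left 12217. Of the 12217, the 22 circRNAs had a lowest wild-type value at least 1 log2 unit above the highest knockout value, where a value is the log2 processed signal of a circRNA after subtraction of the 75th percentile of that array's circRNA probes without an outlier flag. The 22 make up 0.18% of the 12217. The rule used the values compared here, so the levels, falls and gaps of these circRNAs are a description and carry no test.

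The mice were male, of the ICR strain and aged 3 to 4 months. The wild-type group held 3 mice and the Nrf2 gene knockout group 3 mice, with no treatment named for either. The stated purpose was to compare hippocampal profiles of Nrf2 (+/+) and Nrf2 (-/-) animals. Total RNA of each hippocampus had been digested with RNase R before labelling with Cy3. The sources used here do not name the knockout allele, the cells it affects or whether the mice were littermates. Each mouse is a separate replicate in the labels.

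Nrf2, encoded by Nfe2l2, is a transcription factor that is held in the cytoplasm and degraded under basal conditions and that, under oxidative stress, enters the nucleus and switches on antioxidant and detoxification genes. A circRNA forms when a downstream splice donor joins an upstream splice acceptor, so that the exons between them are closed into a ring without free ends. Such rings resist RNase R, which digests RNA from a free end. Brain tissue is known for its many circRNAs, a number of which come from genes of the synapse. The files name the circRNAs by probe only, without a host gene, a position or a sequence, so the circRNAs are given by probe name and no sequence is printed. For the same reason they could not be ordered by the function of their host genes.

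Signal before scaling differed between arrays, with the 75th percentile of the circRNA signal between 231 and 481 intensity units. Replicated probes, with 10 spots each, varied within an array with a median log2 SD between 0.0613 and 0.0925. Each circRNA has a single spot, so this SD is the nearest measure at hand of its technical error. It leaves out technical variation between arrays, and it was taken over probes whose spots were mostly well above background. It can thus understate the error of a comparison between arrays, above all for dim circRNAs. The 3 arrays per genotype limit the precision of every value. The file headers place the 3 wild-type arrays and knockout 1 in scan 1, and knockouts 2 and 3 in scan 2. Knockout 1 is therefore the single knockout array scanned together with wild type. Of 22 cell type markers sought, 3 had a probe: Apoe, the lipid carrier made by astrocytes, at 2.31 ± 0.30 in wild type, Mbp, the myelin basic protein gene, at 0.11 ± 0.26, and Chgb, a granule protein of neurons, at -0.85 ± 0.19 (log2 relative to the 75th percentile, SD, n = 3). In knockout the same probes read 2.41 ± 0.01, -0.25 ± 0.74 and -1.47 ± 0.55. These probes read mRNA, which has free ends, after digestion with RNase R, so their levels are no measure of cell content. No marker that sets hippocampus apart from other brain regions, and no probe for Nfe2l2, was matched, so neither the region nor the genotype label was checked. Fewer cells of a type and less circRNA per cell cannot be told apart in these bulk samples.

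Falls of the 22 circRNAs ranged from 2.49-fold to 26-fold, with a median of 5.77-fold. The median log2 difference, knockout minus wild type, was -2.53, against 0.06 over all 12217 circRNAs. The median level of the 22 was 0.65, 0.09 and 0.37 in wild type mice 1, 2 and 3 and -1.78, -2.07 and -2.42 in knockout mice 1, 2 and 3 (log2 relative to the 75th percentile). Over all 12217 the same medians lay between -1.34 and -1.30 on every array. In wild type the levels of the 22 leaned to the bright side. When the 12217 were parted into 4 equal groups by wild-type mean, 11 of the 22 lay in the brightest group, 6 in the next, 5 in the one after and 0 in the dimmest. By knockout mean, 1 lay in the brightest group and 8 in the dimmest. The rule favours this shift, since a circRNA that is dim in wild type has little room to fall and stay above background.

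The mirror rule, with every knockout at least 1 log2 unit above every wild type, was met by 9 circRNAs (0.0737% of 12217). Without a minimum gap the sides were close to even, with 2000 circRNAs lower in every knockout (16.4%) and 2131 higher (17.4%). At a gap of 0.5 the counts were 217 lower and 128 higher, at 0.75 they were 55 lower and 24 higher, and at 1.5 they were 4 lower and 0 higher. The number on the lower side was thus the larger from a gap of 0.25 upward, where it was 800 against 587. In limma, 13 of 12517 circRNAs passed a Benjamini-Hochberg adjusted p of 0.05, 7 of them lower in knockout (0.0559%) and 6 higher (0.0479%). All 7 that passed as lower are among the 22, but both choices rest on the same arrays, so this is no support. The limma count moved widely with single arrays. Leaving out wild type 1, 2 or 3 gave 0, 365 and 4 circRNAs, and leaving out knockout 1, 2 or 3 gave 2156, 0 and 0. For the counts of 0, between 2483 and 2732 circRNAs had an unadjusted limma p under 0.05, against 3522 with all arrays.

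**Figure D1:**
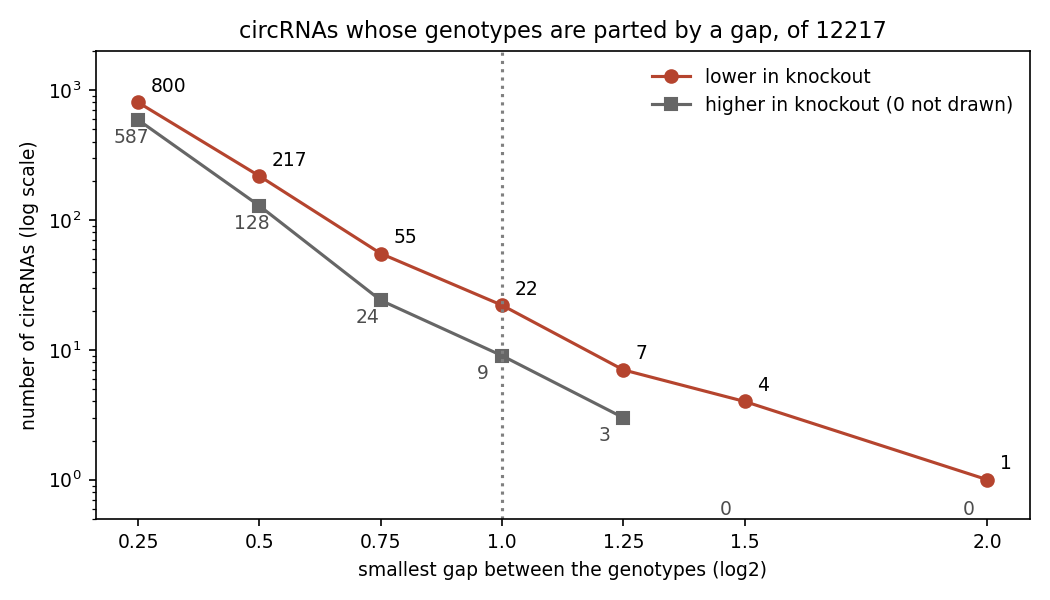
Number of circRNAs, of 12217, whose genotypes were parted by at least the gap on the x axis (log2), on a log scale. Red circles are circRNAs lower in every knockout, grey squares those higher in every knockout, and the dotted line marks the gap of 1 that 22 and 9 circRNAs reached. The number lower exceeds the number higher at each gap shown.

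The widest gap, after scaling to the 75th percentile, belonged to ASCRP4003110. It read -1.06, -1.86 and -1.52 in the wild-type mice 1, 2 and 3, in that order here and for each circRNA that follows, and -4.09, -4.16 and -4.79 in the knockout mice (log2 relative to the 75th percentile). In processed intensity units that was 192, 103 and 80.7 against 22.4, 27 and 12. All 3 knockouts lay close together, far below all 3 wild types. The wild-type mean was -1.48 ± 0.40 and the knockout mean -4.35 ± 0.39 (SD, n = 3 each), which is a 7.31-fold fall with a gap of 2.24, the only gap above 2. ASCRP4003328 had the same shape at a slightly higher level, with -0.77, -1.64 and -1.10 in wild type and -3.34, -3.54 and -3.96 in knockout, 5.45-fold lower. Both are modest signals in wild type, at the 47.2 and 53.5 percentiles of the 12217 by wild-type mean. The gap of ASCRP4003110 was smaller in the authors' processed values (1.47), from the raw median signal (1.37) and with normexp background correction (1.07). With normexp its difference was -1.49 in place of -2.87. By raw median signal, ASCRP4011328 (1.49) and ASCRP4000845 (1.47) had a wider gap. By normexp, wider gaps were those of ASCRP4011328 (1.43), ASCRP4000845 (1.33), ASCRP4003542 (1.18), ASCRP4011372 (1.17) and ASCRP4001946 (1.08).

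Several circRNAs were almost equal among mice of one genotype and differed mainly between genotypes. ASCRP4000534 was the brightest of the 22 in wild type, with 4.01, 4.23 and 3.90 there and 2.78, 2.66 and 2.76 in knockout. Its SD was 0.17 and 0.06 (n = 3 each), so the 2.49-fold fall, the smallest of the 22, was several times the spread of either group. The log2 difference of -1.32 was smaller under other processing. It was -1.04 with quantile normalization, -1.09 with normexp, -1.09 from the raw median signal and -0.85 in the authors' values. ASCRP4007569 read -0.90, -0.90 and -1.08 in wild type and -2.34, -2.22 and -2.70 in knockout, 2.75-fold lower. ASCRP4006108 was similar, with -0.70, -0.82 and -1.17 against -2.46, -2.32 and -2.58, 2.94-fold lower. These 3 were the circRNAs of the 22 with falls under 3-fold, and in each the mice of a genotype lay within 0.5 of each other. ASCRP4000845 fell further, from 0.09, 0.28 and -0.15 to -2.38, -1.74 and -1.97, 4.3-fold, and was the only one of the 22 with its lowest value on knockout 1. ASCRP4010822 was dim, with -2.92, -1.79 and -2.49 in wild type and -4.21, -4.30 and -4.26 in knockout, where the 3 mice differed by only 0.0916. It was also the only one of the 22 with wild type 2 as its highest wild-type array by more than 0.5 and wild type 1 as its lowest.

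In a further 7 circRNAs wild type 2 was the lowest wild-type array and knockout 3 the lowest knockout. ASCRP4003542 read 1.05, 0.11 and 0.81 in wild type and -1.32, -1.67 and -1.82 in knockout, 4.79-fold lower. ASCRP4013117 read 0.26, -1.05 and -0.40 against -2.24, -3.11 and -3.66, 6.1-fold lower. ASCRP4012616 read 1.22, 0.75 and 1.01 against -0.38, -1.37 and -1.93, 4.65-fold lower. In the last of these the wild types lay within 0.472 and the knockouts 1.55 apart, so the spread was mostly among knockouts. ASCRP4013994 read 1.09, 0.26 and 0.43 in wild type and -0.83, -1.91 and -2.24 in knockout, 4.76-fold lower. ASCRP4013931 read -1.45, -2.20 and -1.32 against -3.31, -3.83 and -4.12, 4.28-fold lower. The remaining circRNAs of this kind were the dimmest in knockout. ASCRP4006571 read -1.88, -2.86 and -1.65 in wild type and -3.95, -5.21 and -5.26 in knockout, 6.38-fold lower. ASCRP4011606 read -2.10, -3.54 and -2.10 against -4.56, -4.98 and -5.50, 5.39-fold lower. On knockout 3 these dimmest circRNAs gave 8.63 and 7.33 intensity units, the lowest signals of the 22.

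Together these 14 circRNAs had a median fall of 4.7-fold and a median SD of 0.44 in wild type and 0.35 in knockout, against 0.18 and 0.27 over all 12217. The 7 circRNAs that passed in limma, ASCRP4003110, ASCRP4003328, ASCRP4000845, ASCRP4003542, ASCRP4006108, ASCRP4007569 and ASCRP4000534, all belong to these 14.

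**Figure D2:**
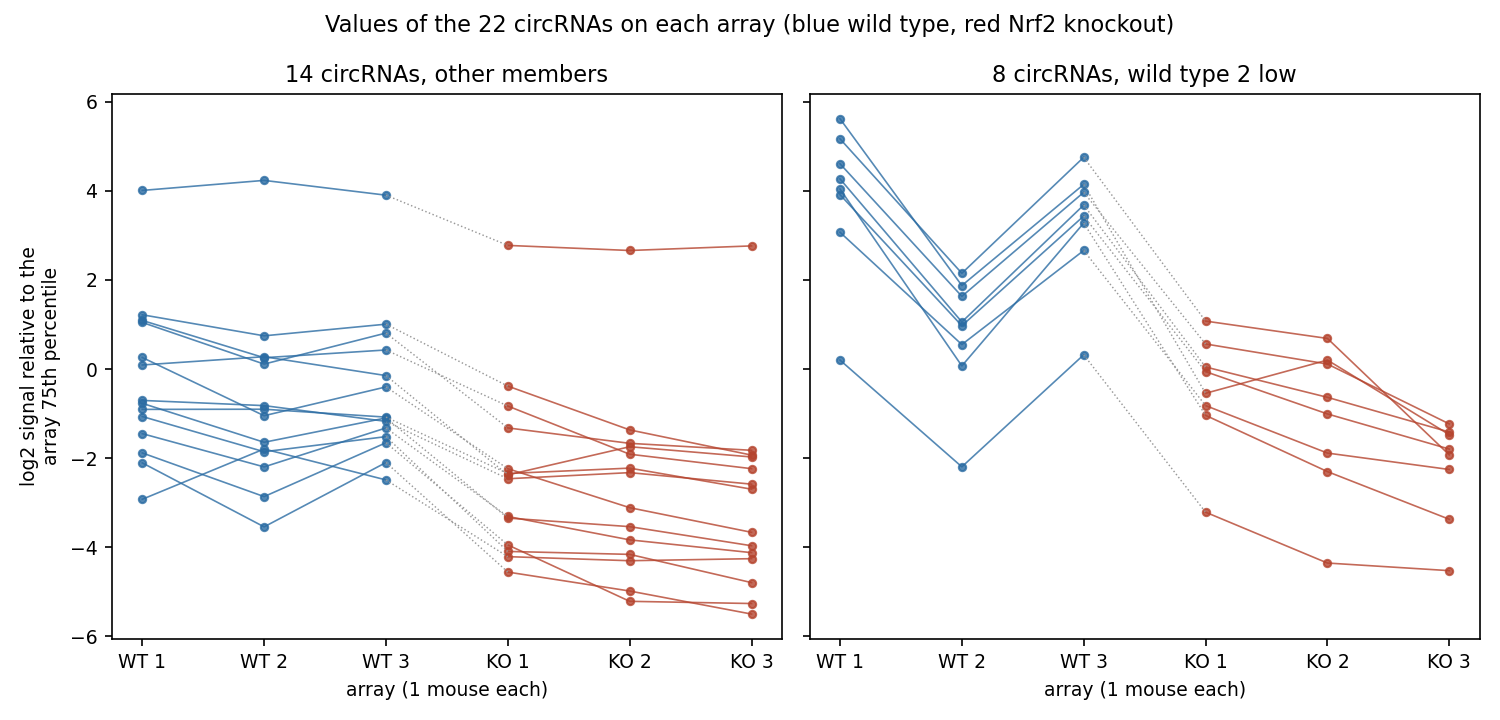
Level, as log2 relative to the 75th percentile of the array (y axis), of each of the 22 circRNAs on the 6 arrays (x axis), with wild type (WT) in blue and Nrf2 knockout (KO) in red. Lines join the values of one circRNA and imply no order among mice. In the left panel of 14 circRNAs the wild-type mice lie within 1.44 of each other, and in the right panel of 8 circRNAs wild type 2 lies at least 2.11 below the other wild-type arrays.

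The other 8 circRNAs had the largest falls, from 11.1-fold to 26-fold, and also the largest differences among wild-type mice. They are the circRNAs of the 22 in which wild type 2 lay at least 1.5 below both other wild-type arrays, a division made after the values were seen. In these 8 that distance was 2.11 to 3.21, and in the other 14 it was at most 1.44. The division places the other wild types well above wild type 2, so with the gap rule it also raises the smallest fall possible. The larger falls of the 8 are thus partly fixed by how they were chosen. The largest fall was that of ASCRP4004601, with 4.04, 0.07 and 3.28 in wild type and -1.04, -2.30 and -3.37 in knockout, 26-fold. In intensity units it gave 6613, 392 and 2237 in wild type and 186, 97.7 and 32 in knockout. Wild type 2 thus lay nearer to knockout 1 than to either other wild type.

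ASCRP4011328 had the third widest gap of the 22, 1.67. It read 5.62, 1.87 and 4.14 in wild type and -0.54, 0.20 and -1.47 in knockout, 22.4-fold lower. On wild type 1 its 19727 intensity units were the highest signal of any of the 22 on any array, and it was the only one of the 8 with knockout 2 above knockout 1. ASCRP4012758 read 5.17, 2.15 and 4.75 against 1.08, 0.69 and -1.93, 16.9-fold lower. Its knockout mice were the most spread of the 22, 3.00 apart, with knockout 3 far below the others. ASCRP4001946 read 4.61, 1.63 and 3.97 in wild type and 0.56, 0.11 and -1.23 in knockout, 12-fold lower. ASCRP4013095 read 4.27, 1.06 and 3.68 against 0.05, -0.63 and -1.41, 12.7-fold lower. ASCRP4008304 read 3.91, 0.97 and 3.43 against -0.06, -1.01 and -1.80, 13.2-fold lower. These 3 had nearly the same profile, each with wild type 1 well above wild type 2 and knockout 3 lowest. ASCRP4011372 read 3.07, 0.55 and 2.66 in wild type and -0.82, -1.89 and -2.25 in knockout, 13.4-fold lower. ASCRP4011717 was the dimmest of the 8, with 0.20, -2.19 and 0.32 against -3.21, -4.35 and -4.52, 11.1-fold lower.

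In all 8 the wild-type arrays lay 2.51 to 3.97 apart, more than the gap of 1.01 to 1.67 that parted wild type 2 from the highest knockout. Their median SD was 1.61 in wild type and 0.85 in knockout, where the division itself fixes a wide spread in wild type. With wild type 2 left out, and the 300 brightest taken from the mean of the other wild types, 253 circRNAs met the rule in place of 22.

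A low wild type 2 was found well beyond these 8. Of the 12217 circRNAs, 98 had wild type 2 at least 1.5 below both other wild-type arrays (0.802%), and 3 had it at least 1.5 above both. That condition uses only wild-type arrays. The 98 include the 8 circRNAs above. Of the other 90, 72 had all 3 knockouts below wild type 2, against 16.4% of all circRNAs with every knockout below every wild type. The share over all circRNAs sets no condition on the wild-type arrays, so it is not a like baseline. The median level of the 98 was 1.96, -0.51 and 1.68 on the wild-type arrays and -0.88, -1.60 and -2.01 on the knockout arrays. On this scale wild type 2 lay near knockout 1, and the other wild types lay apart. Among the 300 brightest circRNAs set aside, 10 met the gap of 1 (3.33% of 300), and 7 of the 10 had wild type 2 at least 1.5 below both others. ASCRP4004376 was one of them, with 6.50, 2.72 and 5.78 in wild type and 1.40, 0.16 and -1.22 in knockout, and was chosen for naming after its values were seen, as the largest fall of the 10.

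The order of the arrays recurred within genotypes. Wild type 2 was the lowest wild-type array in 17 of the 22, against 24.7% of all 12217 circRNAs and 46.2% of the 2000 that were lower in every knockout. Knockout 1 was the highest knockout array in 18 of the 22, against 33.1% and 71.5%. Knockout 3 was the lowest in 19, against 30.4% and 45.1%. The whole order, with wild type 1 above 3 above 2 and knockout 1 above 2 above 3, was held by 12 of the 22, 6 of them among the 8 with a low wild type 2. It was held by 3.57% of all 12217 and 13.3% of the 2000. By Pearson r over the 6 arrays, with values centred within genotype, the circRNAs most like ASCRP4003110 were ASCRP4003328 (r = 0.96), ASCRP4012758 (r = 0.94) and ASCRP4001946 (r = 0.92). Of the other 21, 3 had an r below 0: ASCRP4000845 (-0.28), ASCRP4000534 (-0.49) and ASCRP4010822 (-0.69). These r values are descriptions, since all circRNAs of an array share its RNA, labelling and scan.

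Knockout 1 showed a smaller fall than knockouts 2 and 3 in most of the 22. The median difference from the wild-type mean was -2.08 on knockout 1 and -2.83 on the mean of knockouts 2 and 3 (log2), against 0.01 and 0.08 over all 12217. Expressed as a share of the fall on knockouts 2 and 3, the fall on knockout 1 had a median of 72.5% and ranged from 52% to 127%. The smallest shares were those of ASCRP4012616 (52%), ASCRP4013994 (53.3%), ASCRP4006571 (58.4%) and ASCRP4013117 (61.5%). The largest were those of ASCRP4000845 (127%), ASCRP4006108 (101%), ASCRP4011328 (98%) and ASCRP4010822 (96.3%). Within scan 1, where knockout 1 alone stands against the 3 wild-type arrays, every one of the 22 was still at least 1 below the lowest wild type, as the rule requires, and 36 circRNAs in all met that gap (33 on the higher side). Scan and knockout mouse cannot be told apart among the knockouts. In limma, 1 circRNA passed with the scan as a block, which was higher in knockout, with 1054 at an unadjusted p under 0.05, and 0 passed within scan 1, with 1102.

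**Figure D3:**
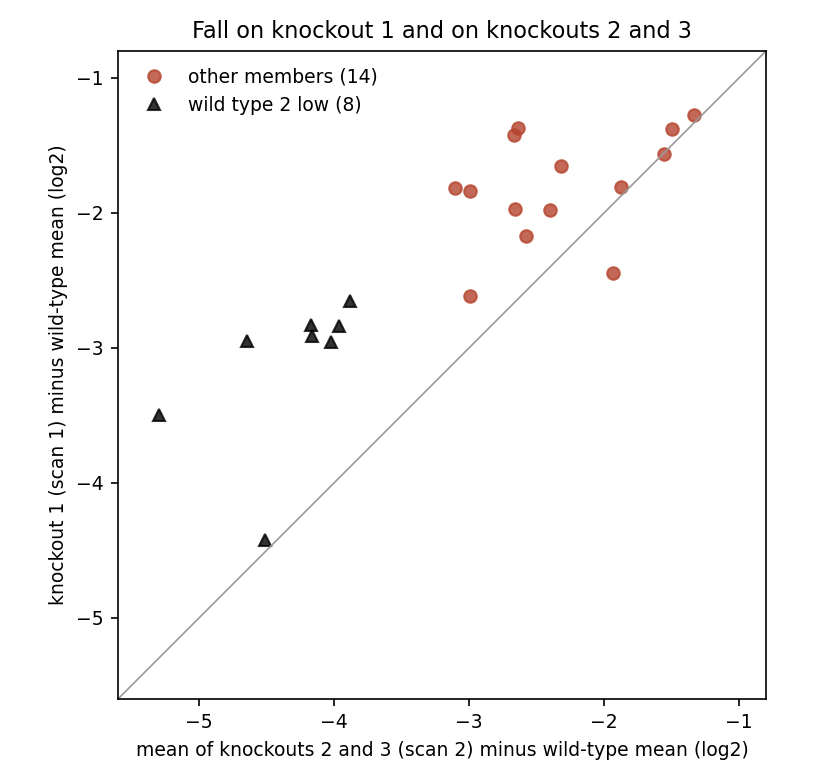
Difference from the wild-type mean (log2) on knockout 1, of scan 1 (y axis), against that on the mean of knockouts 2 and 3, of scan 2 (x axis), for the 14 circRNAs (red circles) and the 8 with a low wild type 2 (black triangles). The grey line marks equal falls; 20 of the 22 points lie above it, with a smaller fall on knockout 1.

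Each array was then left out in turn and the same rule applied to the other 5, within the 12217 circRNAs. The gap of the array left out was not used, but that array had taken part in the filters on detection and brightness. Leaving out knockout 1, 381 of the 12217 circRNAs had both other knockouts at least 1 below every wild type. Knockout 1 was below every wild type for 324 of the 381 (85%), against 30.5% of all 12217. The share over all 12217 sets no condition on the other 5 arrays, so it is not a like baseline. Knockout 1 was neither below nor above all wild types for 54, and was above every wild type for 3. The size was smaller there, with a median of -0.74 from the wild-type mean and 1.14 above the mean of the other knockouts, and 22 of the 381 (5.77%) kept a gap of 1, against 0.295%. Those 22 are by construction the circRNAs described here.

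With the same filtered 12217 circRNAs, the other arrays were left out likewise. Leaving out wild type 2, 265 circRNAs were chosen, wild type 2 was above every knockout for 243 (91.7%, against 27.6% of all), and 8.3% kept the gap of 1 (against 0.548%). Leaving out wild type 3, 52 were chosen and wild type 3 was above every knockout for 42 (80.8%, against 28.7%). Leaving out wild type 1, knockout 2 or knockout 3, 25, 23 and 27 were chosen, and the array left out was on its own genotype's side for 24, 23 and 25 of them, against 26.8%, 34.6% and 33.9% of all. The 5 arrays kept were chosen for high wild-type and low knockout values, and the circRNAs are not independent of each other, so these shares are descriptions. The shares over all circRNAs set no such condition on the 5 arrays, so they are not a like baseline. The number chosen rose most without knockout 1 or wild type 2, and also without wild type 3.

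**Figure D4:**
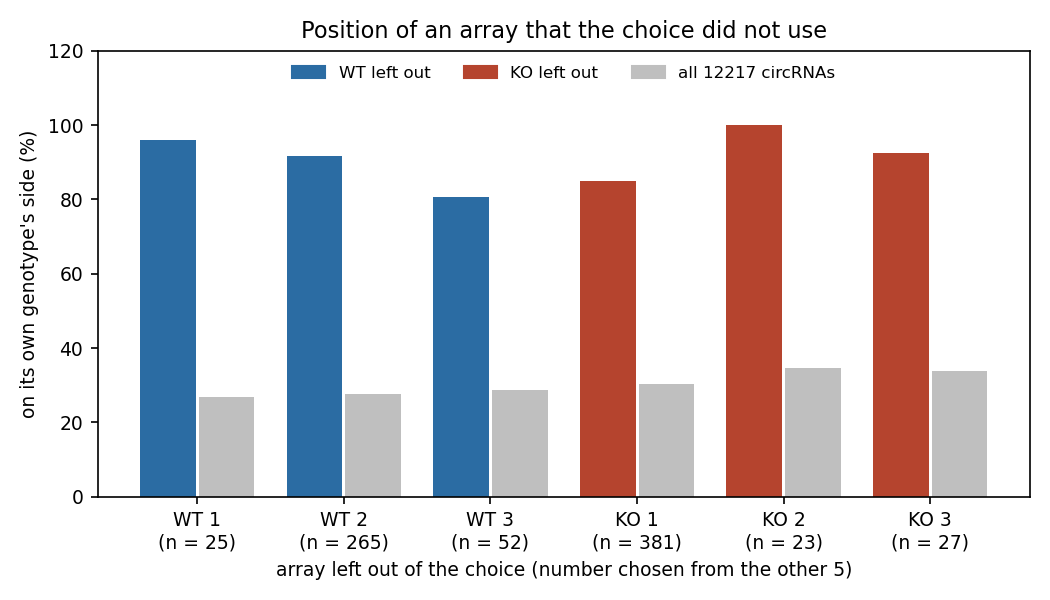
Share of circRNAs for which the array left out lay on its own genotype's side of all arrays of the other genotype (y axis, percent), among those chosen from the other 5 arrays (blue wild type, red knockout, n under each) and among all 12217 (grey). The shares run from 80.8% to 100% where the choice was made, and from 26.8% to 34.6% over all. The grey shares set no condition on the other 5 arrays, so they are not a like baseline.

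In the authors' processed values, all 22 circRNAs were listed and all 22 kept every knockout below every wild type, while 13.9% of circRNAs did so. A gap of 1 was kept by 10 of the 22, and those were the only circRNAs with such a gap (0.0819% of 12217). The smallest gaps in the authors' values were those of ASCRP4006571 (0.31), ASCRP4011606 (0.37), ASCRP4000534 (0.48) and ASCRP4013931 (0.55). From the raw median signal, with no background subtracted, the gaps of these 4 were 0.33, 0.32, 0.92 and 0.50. How the authors' values were normalized is not stated in the sources used here, and they followed the raw median signal closely (Pearson r across circRNAs of 0.997 or more on each array). The bright ASCRP4011328 kept 1.42 of its gap of 1.67. Across the main scaling, quantile normalization, the raw median signal, the authors' values and normexp background correction, 7 of the 22 had a gap of at least 1 in all 5: ASCRP4003110, ASCRP4011328, ASCRP4000845, ASCRP4003542, ASCRP4011372, ASCRP4006108 and ASCRP4001946. The lowest gap of any of the 22 in any of the 5 was 0.229, so that no genotypes overlapped.

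**Figure D5:**
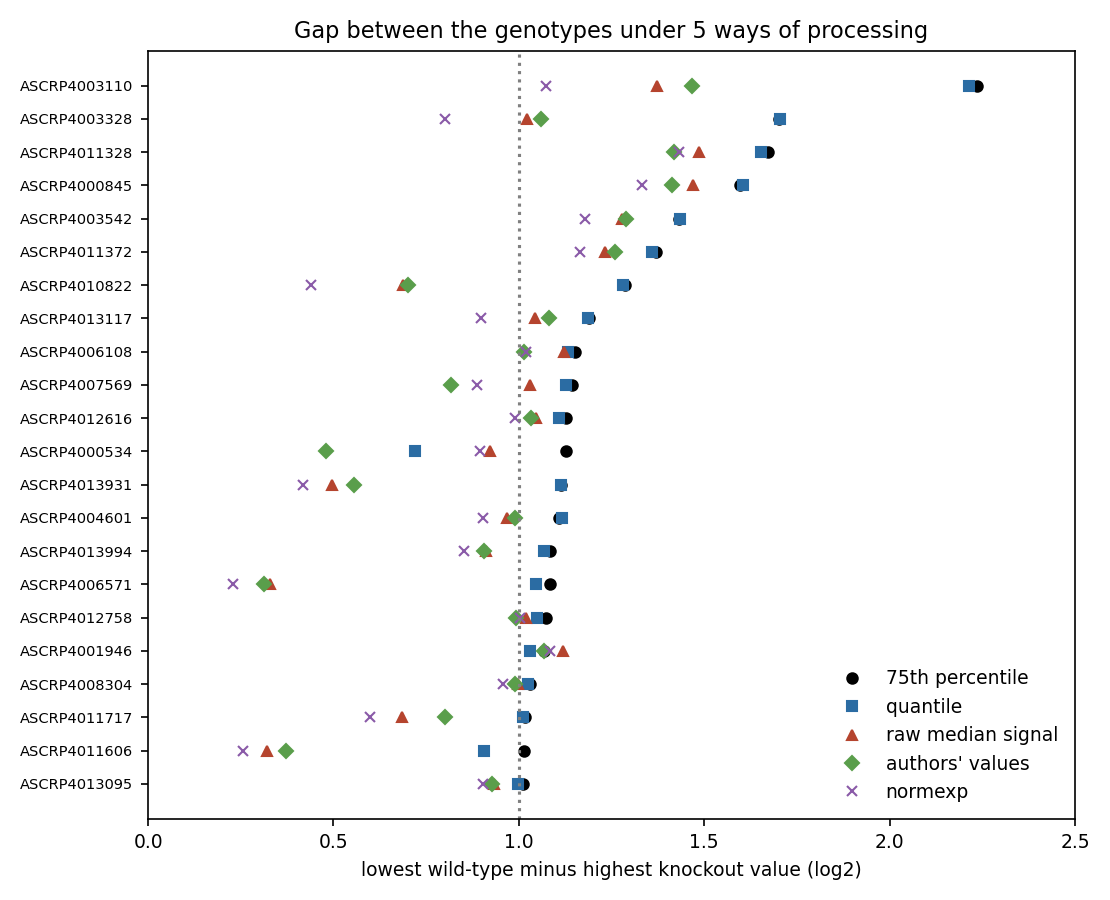
Lowest wild-type minus highest knockout value (x axis, log2) of each of the 22 circRNAs (rows) after scaling to the 75th percentile (black circles), quantile normalization (blue squares), from the raw median signal (red triangles), in the authors' values (green diamonds) and after normexp background correction (purple crosses). The dotted line marks the gap of 1; every point lies above 0, the lowest at 0.229.

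The floor differed between arrays and was lowest in the knockouts of scan 2. The median of the 15 probes named as negatives was -7.44, -7.39 and -6.92 in the wild types, -6.96 in knockout 1 of the same scan, and -8.43 and -7.94 in the knockouts of scan 2 (log2 relative to the 75th percentile). Its part in the result was not tested. The dimmest of the 22 lay 2.40 above that median on knockout 1, 3.22 on knockout 2 and 2.44 on knockout 3. The median local background at the 22 spots differed by at most 1 intensity unit from that of all 12217 on every array. The spots lay in rows 2 to 190 and columns 1 to 82 of the array. Its 4 quadrants held 6, 4, 3 and 9 of them (27.3%, 18.2%, 13.6% and 40.9%), against 25.3%, 24.7%, 25.0% and 25.0% of the 12217. The part of this uneven spread was not tested. The 50 mRNA probes of the array had a median of -3.63, -3.53 and -3.48 in wild type and -3.80, -4.11 and -3.81 in knockout. These lay lower on all 3 knockouts, without the low wild type 2 of the 8 circRNAs, and their part in the result was not tested. Of the 32 mRNA probes whose spots were mostly well above background on all arrays, 1 met the gap of 1, lower in knockout. The mRNA probes read mRNA left after RNase R, and whether digestion differed between arrays was not tested.

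The threshold parted circRNAs with much the same values. Just inside were ASCRP4011717, ASCRP4011606 and ASCRP4013095 with gaps of 1.02, 1.01 and 1.01. Just outside were ASCRP4000335 (0.989), ASCRP4013960 (0.973) and ASCRP4005283 (0.97). Of these, ASCRP4000335 read 5.17, 1.22 and 4.37 in wild type and 0.23, -0.49 and -1.67 in knockout, the profile of the 8 with a low wild type 2, and its 18.8-fold lower mean exceeded that of 20 of the 22. Outside the filters, a gap of 1 was also met by 43 of the 1644 circRNAs that were free of outlier flags but not well above background on all arrays, and by 6 with an outlier flag.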

How the data were processed

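RNA of 6 hippocampi was hybridised to 6 one-colour Agilent arrays, 1 per mouse. The authors deposited one scanner file per array with processed intensity values, made with Feature Extraction 11.0.1.1 (protocol GE1_1100_Jul11, per the file headers), in which background is subtracted, and a table of processed values that match log2 signal by comparison with the scanner files. How the latter were normalized is not stated in any source used. The median of its columns lay between 7.22 and 7.25, so its values are not centred.

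Here, log2 processed intensity minus the array's 75th percentile over unflagged circRNA probes was used. Probes with an outlier flag, or not well above background, on any of the 6 arrays were left out, also where 1 array was later omitted, and for the gap counts also the 300 with the highest wild-type mean. limma 3.58.1 (R 4.3.3) was run on 12517 circRNAs with lmFit and eBayes, two-sided, with Benjamini-Hochberg adjustment at 0.05, genotype as the only term, and was tested on simulated data. Tables were made with Python 3.11.15 and pandas 2.3.3. An exact permutation test of 3 arrays against 3 cannot go below p = 0.1, and none was used.

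The 22 circRNAs, the marker list and the comparisons were chosen with earlier results of these data known. The circRNAs named are the 10 with the widest gap, the 5 highest in wild type, the 3 just inside and 3 just outside the threshold, the 4 with the smallest and 4 with the largest share on knockout 1, up to 4 with the smallest gap in the authors' values and the 3 most like the widest-gap circRNA. All others of the 22 are given so that each is accounted for. Of the mRNA probes, only listed markers are named. Other scalings, background corrections, filters, gaps, left-out arrays, the scan and a replicate block were tried.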

Additional observations from a re-analysis of the deposited data

How the results depend on the processing

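All 22 circRNAs kept every knockout below every wild type under the 5 processings of the gap comparison. Of 286 differences of single circRNAs under the alternatives, 249 moved by less than the spread, 37 moved by more and 0 reversed. The 37 were 13 with normexp, 9 in the authors' values, 8 from raw median signal, 6 within scan 1 and 1 with quantile normalization. Median scaling and the 75th percentile over probes detected on all arrays shift all circRNAs of an array alike. Those settings could thus not move a single circRNA apart from the rest, and the 249 include them. Where arrays were left out or only scan 1 was used, the rule fixes the sign, so no reversal was possible there. The 249 include large shifts, such as ASCRP4004601 without wild type 2, at -5.895 against -4.7. Sizes and counts did move. The number lower by the gap rule (22) was 8 with normexp background correction, 13 from the raw median signal, 10 in the authors' values, 44 with detection on at least 3 arrays, 65 with no background filter, 217 at a gap of 0.5 and 4 at 1.5. The number higher (9) was 2 with normexp, 3 from the raw median signal, 3 in the authors' values, 128 at a gap of 0.5 and 0 at 1.5. Leaving out 1 array gave 23 to 381 lower and 10 to 52 higher. Within scan 1, an alternative chosen after seeing the data, the counts were 36 lower and 33 higher. The median difference of the 22 (-2.53) was -1.77 with normexp, -2.01 from the raw median signal, -1.93 in the authors' values, -2.08 within scan 1 and -2.92 to -2.26 with 1 array left out. The limma count (13) was 387 with normexp, 7 from the raw median signal, 8 in the authors' values, 1 with the scan as a block, 0 within scan 1 (1102 at an unadjusted p under 0.05) and 0 to 2156 with 1 array left out. The cause of these changes was not tested. The share of circRNAs chosen without knockout 1 for which it lay below every wild type stayed between 83.05% and 85.64% over the 6 other processings tried. With a replicate block, which leaves the differences themselves unchanged in this balanced design, limma called 807 circRNAs. Same-numbered arrays correlated at 0.22, -0.05 and 0.23 in their deviations from the group means. Wild types 1, 2 and 3 correlated with the other knockouts at -0.43 to 0.22, -0.15 to 0.20 and -0.18 to -0.07. The same-numbered value was the highest for number 3 only, so these values do not settle pairing. The numbers were not taken as pairs. Signal near background is a limit for the dim circRNAs. The gap of the dim ASCRP4011606 was 1.01 in the main scaling and 0.26 with normexp. That of ASCRP4000534, the brightest of the 22 in wild type, was 1.13, against 0.90 with normexp and 0.72 with quantile normalization. The part of background subtraction in these changes was not tested.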
